A study of Mus musculus with 20 samples.

Results

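The comparison of heterozygous with wild-type embryonic stem cells (ESC) asks what loss of a single functional copy of Mysm1 does to gene expression in pluripotent cells. It rests on 6 of the 20 arrays in the series, 3 labelled heterozygous (het 1 to het 3) and 3 labelled wild type (wt 1 to wt 3), chosen by their titles. All cells were on the C57BL/6 background. Het cells were Mysm1+/tm1a, with the tm1a allele in full Mysm1tm1a(KOMP)WTSI, and wt cells carried no targeted allele. Another 3 ESC arrays were homozygous (hom, written Mysm1tma1/tm1a in the labels) and entered the same fit, so that the genotypes shared a single estimate of the spread. Within a genotype the 3 ESC samples were separate passages of cells whose number of lines is not given, so a p-value here may describe passages rather than independently derived lines. No treatment was named. Mouse embryonic fibroblasts (MEF), 4 het and 4 wt arrays, served for a single comparison of cell types.

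MYSM1 is a metalloprotease that removes ubiquitin from histone H2A, the mark that Polycomb repressive complex 1 (PRC1) writes at repressed genes. In the mouse it is known above all for its part in blood formation, where loss of the gene is tied to activity of the p53 pathway. Mouse ESC keep a network of pluripotency factors such as Pou5f1, Sox2 and Nanog active, and they leave it towards epiblast, endoderm or trophoblast when that network is lowered. The tm1a design is a knockout-first gene trap, in which a cassette in an intron intercepts the transcript. Where the Mysm1 probe lies relative to the cassette was not given.

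Values are log2 intensities of Illumina bead arrays after background correction and quantile normalization of the 9 ESC arrays together. Each gene is read by its brightest tested probe unless stated. The main test was limma with genotype and the trailing replicate number as terms, and a probe was called where its p, adjusted over 14502 tested probes of 8694 genes, was under 0.05. The replicate number behaved as a shared factor across genotypes. After removal of group means, arrays of different genotype correlated at 0.367 to 0.773 with the same number and at −0.62 to 0.20 with different numbers. Among arrays of the other genotypes, 9 of 9 arrays were closest to an array of their own number. Pairs within a genotype were left out, since removal of its mean pushes their correlation below 0. That removal also ties the ranges for same and different numbers. An array's covariances with the arrays of another genotype then sum to 0, so positive values for the same number bring negative ones elsewhere. Across the 9 arrays the median raw signal was 54.1 to 59.8, 29.3 to 31.5% of probes were detected, and a probe was read on 45.1 to 45.5 beads on average. The number of arrays limits the precision.

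The ESC label held for the wt and het arrays. All 8 ESC markers (Pou5f1, Nanog, Sox2, Zfp42, Esrrb, Klf4, Dppa5a and Tdgf1) were detected on every array, with a summed linear intensity of 32706 to 38270 in wt and 35939 to 37142 in het. Of 9 fibroblast or feeder markers, 7 were detected on some array and Col3a1 and Postn on none. Their sum was highest in replicate 2 of each genotype, at 1745 in wt 2 and 2719 in het 2, against 406 to 670 in the other wt and het arrays. Of 8 primitive endoderm markers, 5 were detected, and Gata4, Sox17 and Foxa2 were not, with sums of 636 to 704 in wt and 579 to 645 in het. Of 5 markers of primed epiblast and streak with a matched probe (T had none), 3 were detected, and Mixl1 and Eomes were not (270 to 360 in wt and 266 to 581 in het). Of 4 trophoblast markers, 1 was detected on some array (sums 79.5 to 93.4 in wt and 80.6 to 90.2 in het) and Cdx2, Elf5 and Hand1 on none. Of 5 macrophage markers with a matched probe (Cd68 had none), 2 were detected, and Ptprc, Adgre1 and Cd14 were not (115 to 186 in wt and 117 to 255 in het). In bulk samples fewer cells of a type and less RNA per cell cannot be told apart.

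Mysm1 itself went against the label of a het array. Of its 4 probes, 1 was above background, on 7 of 9 ESC arrays. Its level was 7.69, 7.48 and 7.64 in wt 1 to wt 3 and 4.45, 6.68 and 6.67 in het 1 to het 3, and all 3 het arrays lay below all 3 wt arrays. On the linear scale the library labelled het 1 held 11.3% of the wt mean, with the probe not detected, while het 2 held 52.9% and het 3 held 52.4%. Hom arrays lay at 6.47, 5.42 and 4.81, so the library labelled het 1 was below each of them and the library labelled hom 1 was near het 2 and het 3. Background and the offset added before the logarithm compress dim values, so these shares can overstate what is left.

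The fitted Mysm1 difference was −1.67 ± 0.508 (SE, het minus wt, n = 3 each), with a limma adjusted p of 0.187. An exact two-sided permutation test, which exchanges arrays across numbers, gave p = 0.1, the smallest that 3 against 3 allows. Exchange within same-numbered pairs, a test added after the data were seen, gave an exact p of 0.25, the smallest that 3 pairs allow. Leaving out the library labelled het 1 gave a fitted difference of −0.68 ± 0.263 (limma adjusted p = 0.288), and the difference of plain means was −0.93, or 52.6% of wt. The exact p was again 0.1, the smallest possible for 2 against 3, and 0.5 within the 2 remaining pairs, again the smallest. Without the libraries labelled het 1 and hom 1 the fit gave −0.88 with limma adjusted p = 0.0266, and since Mysm1 levels were among the reasons to doubt those labels, that p is no test of the allele.

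Some other values of the library labelled het 1 stood with hom arrays. Its correlation over all tested probes does not place it: it was 0.993 with hom 1, which carries the same number, 0.987 with wt 3, 0.984 with hom 3, 0.980 with het 3, 0.977 with hom 2 and 0.969 with het 2. On the third principal component, which held 13.6% of the variance, it lay at −13.2, beside the hom arrays at −15.7 to −10.7. Het 2 and het 3 lay at 12.2 and 18.6 and wt arrays at 2.9 to 10.7. That component did not separate the library labelled het 1 from hom 1, which also lay at −13.2 although its Mysm1 level was near het 2 and het 3. Xlr4a, an X-linked member of a lymphocyte-regulated gene family, was at 9.06 in the library labelled het 1, 8.81 in hom 2 and 8.58 in hom 3, but 4.29 to 5.07 on the other 6 arrays. The median of X-linked genes, relative to the mean over the 9 arrays, was 0.14 in it, 0.19 in hom 2 and 0.25 in hom 3, and −0.17 to −0.04 elsewhere. Xlr4a and chromosome X were singled out after their values were seen. The cause was not tested, and the results below are given with and without that library.

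**Figure D1:**
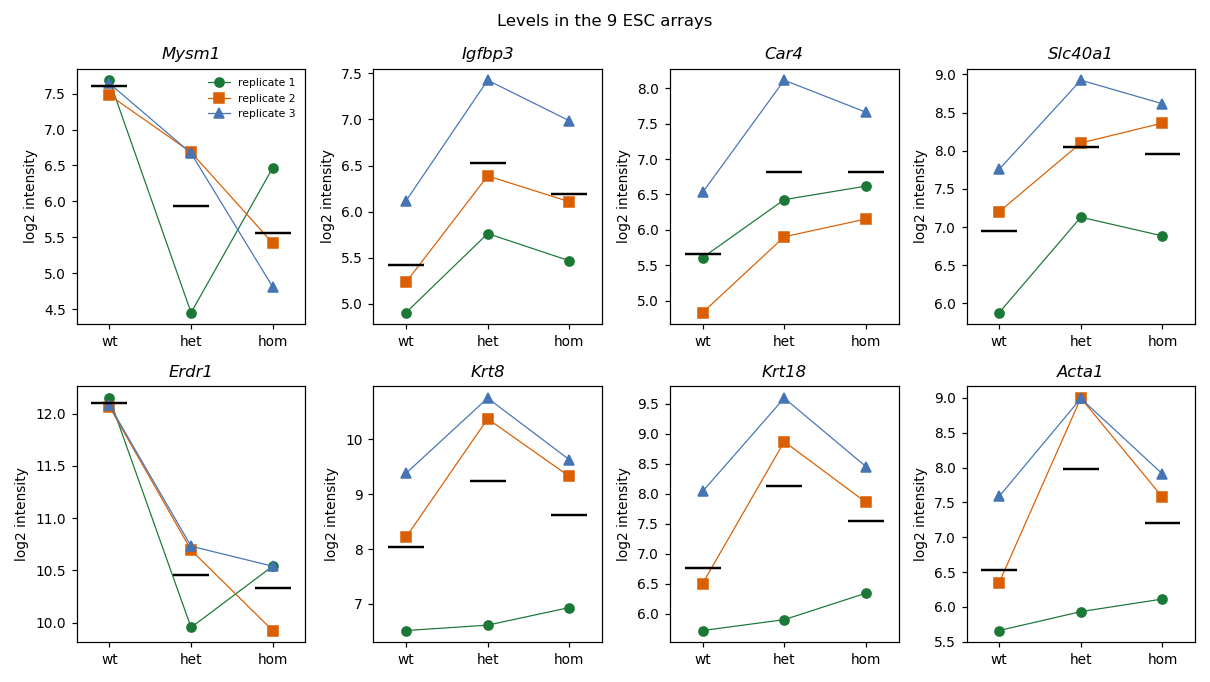
Log2 intensity (y axis, a separate range for each gene) of 8 genes in the 9 ESC arrays, by genotype (x axis), with lines joining arrays of the same replicate number and black bars at group means. Mysm1 was lowest in the library labelled het 1 at 4.45, Igfbp3, Car4 and Slc40a1 were higher in het than in wt within each replicate number, and Krt8, Krt18 and Acta1 in replicate 1 moved little beside replicates 2 and 3.

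In the plot of levels by genotype, lines of Igfbp3, Car4 and Slc40a1 ran parallel from wt to het at different heights, so groups overlapped although each same-numbered pair moved one way. That spread between replicate numbers is what the block removes.

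With all 3 het arrays, a small set of genes changed: 37 of 14502 probes were called, or 0.255%, with 28 higher (0.193%) and 9 lower (0.0621%) in het. They covered 26 genes and 5 probes with no gene name, and 15 of them differed by at least 1 on the log2 scale. All 37 moved in the same direction in the 3 same-numbered pairs, as did 37.7% of all tested probes, and a fit with the block favours such probes. Groups did not overlap for 9 of the 37. Over all tested probes the 3 het arrays lay above all wt arrays for 4.05% and below them for 5.93%. At an unadjusted p under 0.05 there were 1986 probes (13.7%). With genotype alone and no replicate block, 0 probes were called by limma (0%, 658 or 4.54% at an unadjusted p under 0.05, smallest adjusted p 0.271), so each call here rests on the pairing by number.

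The count also rested on single libraries. It was 83 without wt 1, 3 without wt 2, 6 without wt 3, 140 without the library labelled het 1, 3 without het 2, 6 without het 3 and 10 without hom 2. Without wt 2 the 3 probes were those of Pisd-ps3, Erdr1 and an unnamed probe, and without het 2 they were 2 probes of Erdr1 and that of Slc40a1. Without wt 3 they read Pisd-ps3, Erdr1, Pea15a, Slc40a1 and an unnamed probe, and without het 3 Acss1, Erdr1, Mmp3, Slc40a1 and an unnamed probe. Among named genes Erdr1 was called in each of these last 4 fits, by its brighter probe in 3 of them, and every other call missed the threshold in at least 1.

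**Figure D2:**
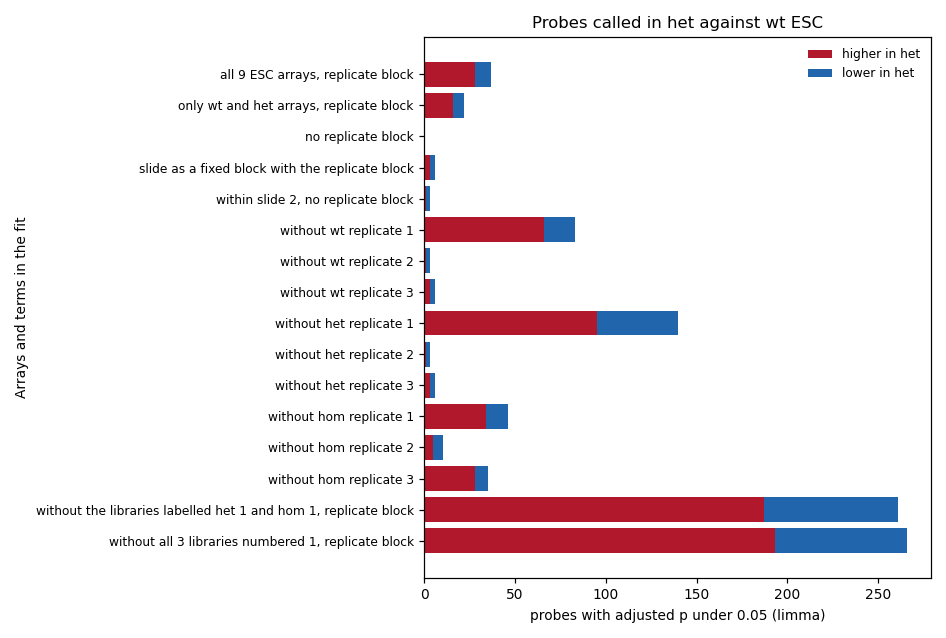
Number of probes with limma adjusted p under 0.05 in het against wt ESC (x axis), higher in het in red and lower in blue, for 16 choices of arrays and terms (y axis). The count was 37 with all 9 arrays and the replicate block, 0 without the block, 140 without the library labelled het 1 and 261 without the libraries labelled het 1 and hom 1.

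The plot of calls by setting shows that counts went up when libraries numbered 1 were left out and fell to 6 or fewer when slide was a term. All wt arrays and the library labelled het 1 were on slide 2, and het 2, het 3 and all hom arrays were on slide 3. With slide and replicate number both as fixed terms, 6 probes were called (0.0414%): 2 of Erdr1, 2 of Atp6ap2, that of Mysm1 and an unnamed probe. That fit links wt to het through the library labelled het 1 alone. Within slide 2, where that library was set against the 3 wt arrays and assumed to vary like them, 3 probes were called (0.0207%). Erdr1 at −2.15 and Mysm1 at −3.15 were lower (0.0138%) and Xlr4a at 4.55 was higher (0.0069%). Mysm1 and Xlr4a values were among the reasons to doubt that library's label, so their calls here are no test of the allele. Once that library is left out, slide and genotype cannot be told apart.

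Among the genes that rose, Igfbp3 and Car4 were chosen as markers of the comparison with earlier results known, so their levels are a description and their p-values no independent support. Igfbp3 encodes a secreted protein that binds insulin-like growth factors (IGF) and limits their access to receptors. Its level was 4.90, 5.23 and 6.12 in wt 1 to wt 3 and 5.76, 6.39 and 7.43 in het 1 to het 3, with hom at 5.47, 6.11 and 6.99. Each het array was above the wt array of its number, and het 2 and het 3 were above all wt arrays. The fitted difference was 1.11 ± 0.135 (SE), a 2.16-fold rise (limma adjusted p = 0.00665). Without the library labelled het 1 it was 1.18 ± 0.155 (adjusted p = 0.00527). The other tested Igfbp3 probe was dimmer and gave 0.45 ± 0.195 (adjusted p = 0.333). Igfbp3 lies on chromosome 11 at 7206086 to 7215498 of GRCm38.p6.

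Car4 encodes a carbonic anhydrase anchored to the outer cell surface, which interconverts carbon dioxide and bicarbonate. Its level was 5.61, 4.83 and 6.53 in wt and 6.43, 5.90 and 8.12 in het, with hom at 6.62, 6.15 and 7.66. Groups overlapped, since het 2 was below wt 3, but each pair rose. The fitted difference was 1.16 ± 0.160 (2.23-fold, limma adjusted p = 0.0150), and 1.29 ± 0.175 without the library labelled het 1 (adjusted p = 0.00583). It lies on chromosome 11 at 84957754 to 84966054.

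Promoter sequences of both are shown because they are the genes that stand for this comparison. Each spans the start annotated for that promoter, mostly upstream of it, and is written 5′ to 3′ on the gene's strand, from RefSeq (GRCm38.p6). The Igfbp3 window lies inside the gene span given above, so its start is not the outer end of that span. The windows are chr11:7213874-7214173 on the minus strand for Igfbp3 and chr11:84957504-84957803 on the plus strand for Car4. Capitals mark matches to any of 4 motifs, each searched on both strands. They are TATAAA (the TATA box), the AP-1 motif TGANTCA, the GC box GGGCGG and the CArG box.
Igfbp3: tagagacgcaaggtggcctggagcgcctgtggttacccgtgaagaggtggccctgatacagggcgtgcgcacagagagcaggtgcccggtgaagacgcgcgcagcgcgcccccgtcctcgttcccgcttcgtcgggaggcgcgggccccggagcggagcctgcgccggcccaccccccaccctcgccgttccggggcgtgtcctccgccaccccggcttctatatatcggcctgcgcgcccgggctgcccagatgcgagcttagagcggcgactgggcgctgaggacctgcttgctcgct
Car4: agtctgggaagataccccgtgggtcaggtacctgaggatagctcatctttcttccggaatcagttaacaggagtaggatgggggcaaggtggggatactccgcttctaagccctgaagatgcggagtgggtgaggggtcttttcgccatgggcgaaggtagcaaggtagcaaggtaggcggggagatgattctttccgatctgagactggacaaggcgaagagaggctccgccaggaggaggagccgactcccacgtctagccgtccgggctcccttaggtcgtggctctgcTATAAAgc
Car4 held TATAAA, 42 bases after the annotated start, and Igfbp3 held none of the 4 motifs in these letters. Of 32851 promoter windows of the same length, 13.62% held TATAAA, 7.808% TGANTCA, 35.66% GGGCGG and 1.629% a CArG box. A match is a description, not a site.

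Slc40a1 encodes ferroportin, the exporter of iron from cells. It was at 5.88, 7.20 and 7.76 in wt and 7.13, 8.10 and 8.92 in het, and it rose by 1.11 ± 0.128 (2.15-fold, limma adjusted p = 0.00468), or 1.03 ± 0.146 without the library labelled het 1 (adjusted p = 0.00671). Het 2 and het 3 were above all wt arrays. Nnat, an imprinted gene expressed in neural tissue, was at 4.58, 4.43 and 5.47 in wt, where 1 of 3 arrays detected it, and at 5.97, 5.33 and 6.62 in het, where all did. It rose by 1.15 ± 0.170 (adjusted p = 0.0220), and by 0.96 (adjusted p = 0.0240) without that library. Pea15a, a small phosphoprotein that binds ERK kinases, was at 4.45, 5.52 and 5.71 in wt and 5.85, 6.71 and 6.52 in het, with no overlap, a rise of 1.13 ± 0.185 (adjusted p = 0.0370), or 1.16 without that library (adjusted p = 0.0301).

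Some rises were larger in pairs 2 and 3 than in the pair of the library labelled het 1. Gbp2, an interferon-inducible GTPase, was at 5.29, 5.61 and 7.13 in wt and 5.92, 7.11 and 9.40 in het. It rose by 1.47 ± 0.248 (2.76-fold, limma adjusted p = 0.0425), and by 1.87 ± 0.191 without that library (3.67-fold, adjusted p = 0.00103). Scarf2, a scavenger receptor family member, was at 6.05, 8.01 and 6.19 in wt and 6.47, 9.30 and 7.73 in het, a rise of 1.09 (adjusted p = 0.0472) or 1.43 without that library (adjusted p = 0.00103). The calcium-dependent membrane-binding proteins Anxa3 and Anxa5 rose by 1.01 (adjusted p = 0.0435) and 0.83 (adjusted p = 0.0370). Without that library they rose by 1.28 and 0.95. Anxa3 levels were 7.97, 9.50 and 9.50 in wt and 8.37, 10.71 and 10.92 in het. Within slide 2, where the library labelled het 1 meets the 3 wt arrays, Gbp2, Scarf2, Anxa3, Anxa5 and Prnp had differences of the opposite sign (−0.0858, −0.27, −0.62, −0.13 and −0.0859).

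The other rises were 0.57 to 0.92 on the log2 scale. Itga3, an integrin subunit that binds laminins, rose by 0.85, Prnp, the prion protein gene, by 0.82 and Gpx8, a peroxidase of the endoplasmic reticulum, by 0.80. Gpx8 was called by each of its 3 tested probes. Car2, a cytosolic carbonic anhydrase, rose by 0.78, Mgp, an inhibitor of calcification in extracellular matrix, by 0.71 and Ccng1, a p53 target that encodes cyclin G1, by 0.66. Sec63, part of the protein translocation machinery of the endoplasmic reticulum, rose by 0.78 with adjusted p = 0.0494, and it missed the threshold without the library labelled het 1 (0.75, adjusted p = 0.0626). Without that library the rises were 1.02 for Itga3, 1.03 for Prnp, 0.84 for Gpx8, 0.79 for Car2, 0.70 for Mgp and 0.67 for Ccng1, all called. Named here only to complete the account are H13 (0.92, by a dimmer probe), Pdlim7 (0.69), B2m, the light chain of MHC class I (0.68), and Tuba1a (0.57). The first 3 were at 1.06, 0.76 and 0.84 without that library, and Tuba1a had an adjusted p of 0.0543.

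Among the genes that fell, Erdr1 is a gene of the pseudoautosomal region of the sex chromosomes with near-identical copies, so its probes are uncertain. Its level was 12.15, 12.07 and 12.08 in wt, 9.95, 10.69 and 10.73 in het and 10.54, 9.92 and 10.54 in hom, with no overlap between wt and het. It fell by 1.64 ± 0.185 on the log2 scale (limma adjusted p = 0.00468), and by 1.32 ± 0.134 without the library labelled het 1 (adjusted p = 0.00103). Pisd-ps3, annotated as a pseudogene of the phosphatidylserine decarboxylase gene and equally uncertain, was at 9.02, 7.63 and 8.05 in wt and 6.39, 6.25 and 6.4 in het. It fell by 1.89 ± 0.245 (adjusted p = 0.00897), and the difference without that library was −1.78.

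Acss1, a mitochondrial acetyl-CoA synthetase, was at 7.53, 6.68 and 7.69 in wt and 6.60, 5.47 and 6.94 in het, a fall in each pair that came to −0.96 ± 0.136 (limma adjusted p = 0.0167) or −1.01 without the library labelled het 1. Hal, the histidine ammonia-lyase gene, was at −0.87 ± 0.138 (adjusted p = 0.0370), and at −0.79 without it (adjusted p = 0.0363). Gab1, an adaptor of receptor tyrosine kinases, was at 11.25, 11.09 and 11.04 in wt and 10.72, 10.52 and 10.67 in het, with no overlap and a difference of −0.49 ± 0.086 (adjusted p = 0.0464), which missed the threshold without that library (adjusted p = 0.0626). Slc11a1, a metal ion transporter of phagocyte vesicles, fell by 1.03 by a dimmer probe (adjusted p = 0.00897), and its brighter probe gave −0.51 (adjusted p = 0.0874). Without that library these were −1.09 (adjusted p = 0.00699) and −0.61 (adjusted p = 0.0487).

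**Figure D3:**
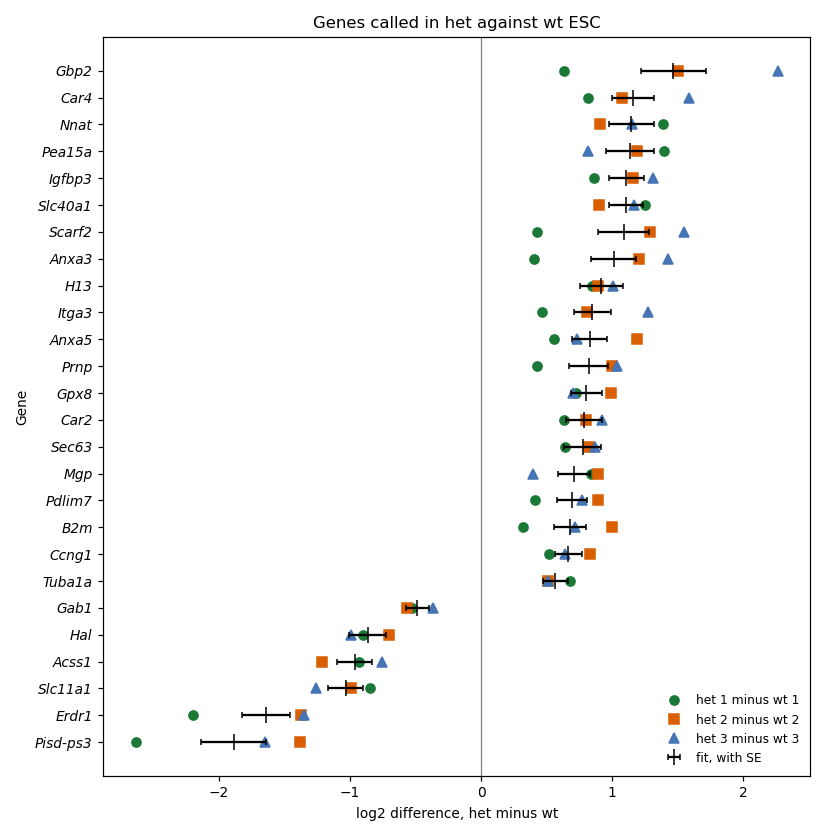
Log2 difference between het and wt (x axis) for the 26 genes called with all 3 het arrays (y axis), as same-numbered pairs (coloured points) and as the fitted value with its SE (black), each by the called probe with the highest mean. The pair of the library labelled het 1 had the smallest rise for Gbp2 (0.63), Scarf2 and Anxa3, and the largest fall for Erdr1 and Pisd-ps3.

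In the plot of called genes all coloured points of a gene lay on the same side of 0, and pair 1 sat away from the other pairs for some genes. Against single wt arrays the library labelled het 1 was less apart: it lay beyond all 3 wt arrays in the called direction for 12 of the 37 probes.

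Without the library labelled het 1, a wider set of genes changed. In that fit 140 probes were called (0.965%), 95 higher (0.655%) and 45 lower (0.31%), of 108 genes and 13 unnamed probes, and 46 differed by at least 1. Of the 37 earlier calls 33 were among them, which is 89.2% of the 37 and 23.6% of the 140. The 4 that were not read Tuba1a, Gab1, Sec63 and an unnamed probe, and 107 were gained. Over all tested probes het 2 and het 3 were both above the wt arrays for 9.76% and both below them for 14.4%. Each of the 140 moved in the same direction in both remaining pairs, as did 63.5% of all tested probes, and all 140 were also called when the library labelled hom 1 was left out too, in a fit that called 261 probes (1.8%). Because het 2 and het 3 lay on slide 3 and the wt arrays on slide 2, slide and genotype cannot be told apart in these calls.

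Among named genes Acta1, the actin of skeletal muscle, had the largest rise, and a probe with no gene name rose further. Its level was 5.66, 6.35 and 7.59 in wt, 5.93 in the library labelled het 1, 9.0 in het 2 and 8.99 in het 3, and 6.11, 7.57 and 7.91 in hom. The difference was 1.97 ± 0.223 (3.93-fold, limma adjusted p = 0.00197), against 1.44 ± 0.310 with all 3 het arrays (adjusted p = 0.0806). Krt18 and Krt8 encode the partner keratins that form the intermediate filaments of simple epithelia. Krt18 was at 5.72, 6.50 and 8.04 in wt and 5.90, 8.87 and 9.59 in het 1 to het 3. Krt8 was at 6.51, 8.22 and 9.38 in wt and 6.61, 10.38 and 10.75 in het. Both were highest in het 2 and het 3, above all wt and hom arrays, and close to wt 1 in the library labelled het 1.

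Krt18 rose by 1.92 ± 0.191 (3.78-fold) and Krt8 by 1.72 ± 0.176 (3.30-fold), each with limma adjusted p = 0.00103, against 1.37 (adjusted p = 0.0816) and 1.21 (adjusted p = 0.0929) with all het arrays. Within slide 2 the library labelled het 1 minus the wt mean was −0.85 for Krt18, −1.43 for Krt8 and −0.60 for Acta1, the opposite sign. Fibroblast markers were highest in replicate 2, with sums of 416 in het 3 and 406 in wt 3. Het 3 minus wt 3 and het 2 minus wt 2 shared a sign for all 3 genes, which the rule for naming genes in this fit required. The part of those markers in the result was not tested.

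The promoters of these 3 genes are shown because the genes moved together and lie on 2 chromosomes, Krt8 and Krt18 side by side on chromosome 15. The windows and capitals follow the same rule: chr15:102004293-102004592 on the minus strand for Krt8, chr15:102027966-102028265 on the plus strand for Krt18 and chr8:123894726-123895025 on the minus strand for Acta1.
Krt8: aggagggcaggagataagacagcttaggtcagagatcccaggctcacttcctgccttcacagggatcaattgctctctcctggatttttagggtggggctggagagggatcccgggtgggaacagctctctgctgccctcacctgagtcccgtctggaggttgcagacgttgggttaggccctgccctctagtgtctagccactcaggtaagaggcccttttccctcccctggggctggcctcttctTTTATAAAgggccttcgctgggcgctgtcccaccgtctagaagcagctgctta
Krt18: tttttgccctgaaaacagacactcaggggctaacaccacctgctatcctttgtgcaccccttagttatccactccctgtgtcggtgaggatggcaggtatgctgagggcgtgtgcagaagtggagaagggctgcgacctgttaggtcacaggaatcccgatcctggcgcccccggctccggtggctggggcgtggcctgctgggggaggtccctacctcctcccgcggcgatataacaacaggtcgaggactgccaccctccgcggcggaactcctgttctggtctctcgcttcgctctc
Acta1: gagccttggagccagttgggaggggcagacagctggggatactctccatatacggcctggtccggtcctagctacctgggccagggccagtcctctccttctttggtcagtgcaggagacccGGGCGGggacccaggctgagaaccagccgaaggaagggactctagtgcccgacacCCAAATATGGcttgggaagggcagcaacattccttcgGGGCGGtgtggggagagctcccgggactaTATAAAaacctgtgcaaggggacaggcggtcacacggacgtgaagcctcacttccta
TATAAA was in the Krt8 and Acta1 windows. In the Krt8 window it overlapped its own reverse match. The Acta1 window also held 2 matches to GGGCGG and a CArG box, CCAAATATGG, which is the motif of serum response factor, at −73 to −64 from the start. Krt18 held none of the 4 motifs. Over genes called higher without the library labelled het 1, 56 of 74 had a promoter window, and 10 of these held TATAAA (17.9%), 7 TGANTCA (12.5%), 38 GGGCGG (67.9%) and 2 a CArG box (3.57%). Over genes called lower, 23 of 34 had one, with 6 (26.1%), 3 (13%), 10 (43.5%) and 0 (0%). Over the first promoter of all 27025 genes the shares were 14.2%, 7.93%, 35.9% and 1.57%. Genes that pass a filter on dim probes differ from all genes, so these shares are a description only.

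Other large rises in this fit were Pmp22, a myelin membrane protein gene, at 1.56 ± 0.239 (limma adjusted p = 0.01005) and Efna5, a ligand of Eph receptors, at 1.25 ± 0.161 (adjusted p = 0.00464). Efna5 was at 6.00, 6.63 and 7.13 in wt, 6.15 in the library labelled het 1, and 7.76 and 8.66 in het 2 and het 3. Eif2s3y, a Y-linked translation factor gene, was not detected on any wt array (4.20 to 4.63) and lay at 5.41 and 5.70 in het 2 and het 3, at least 1.55-fold higher. It passed the filter on dim probes only through het 2, het 3 and hom 1, so its difference is a description. It was at 4.19 in the library labelled het 1 and 5.45 in hom 1, with hom 2 and hom 3 at 4.20 and 4.33. The other tested Y-linked gene, Uty, was at 4.60 to 4.91 in wt and 4.88 to 4.93 in het. Foxq1, a forkhead factor, was likewise undetected in wt and at least 1.79-fold higher in het 2 and het 3. It too passed the filter only through arrays that were not wt, so no test is given.

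The largest falls besides Pisd-ps3 (−1.78) and Erdr1 were Rhox9 and Rhox6, X-linked homeobox genes of the reproductive cluster expressed in germ cells and placenta. Rhox6 was at 6.04, 7.97 and 7.43 in wt and 6.60 and 6.10 in het 2 and het 3, and at 6.97 in the library labelled het 1. Het 2 and het 3 were below wt 2 and wt 3 but not below wt 1. The differences were −1.37 ± 0.161 for Rhox6 (limma adjusted p = 0.00251) and −1.46 ± 0.210 for Rhox9 (adjusted p = 0.00726). With all 3 het arrays they were −0.59 (adjusted p = 0.513) and −0.72 (adjusted p = 0.428), since pair 1 moved the other way. Msc, a repressor of the basic helix-loop-helix class, shared that pattern, at −0.88 (adjusted p = 0.01005) against −0.28 (adjusted p = 0.720).

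Crtac1, a cartilage matrix protein gene, was at 5.82, 6.2 and 6.12 in wt and 5.51, 5.21 and 4.99 in het, with no overlap. It fell by 1.03 ± 0.159 without the library labelled het 1 (limma adjusted p = 0.01005) and had −0.81 with it (adjusted p = 0.0806). Krt42, a type I keratin gene, was at −1.02 (adjusted p = 0.00958), Rpl3l, a muscle paralog of a ribosomal protein, at −0.98 (adjusted p = 0.01005) and Phf11d, a PHD finger gene, at −0.86 (adjusted p = 0.0114). The other 2 tested probes of Krt42 gave −1.07 and −0.94.

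**Figure D4:**
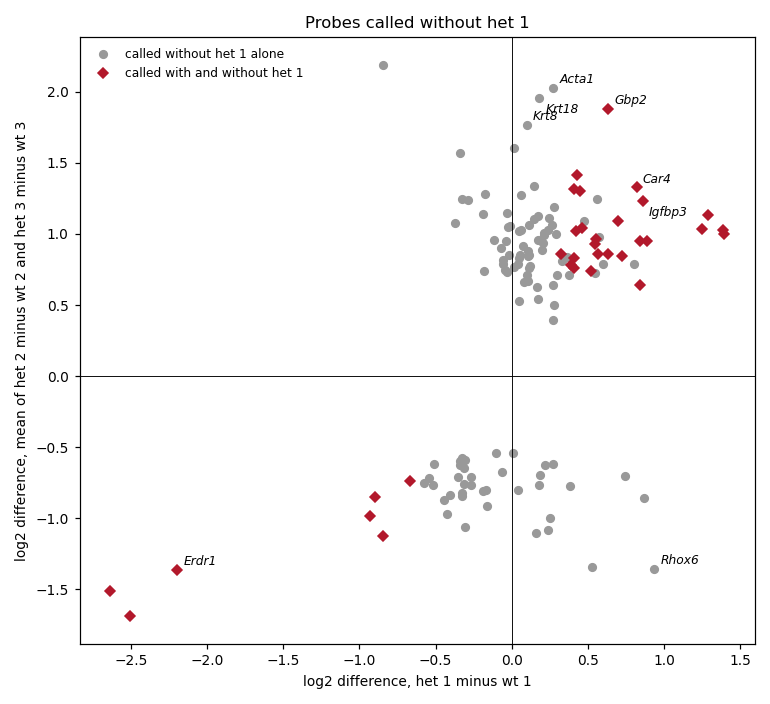
Log2 difference of the library labelled het 1 from wt 1 (x axis) against the mean difference in pairs 2 and 3 (y axis), for the 140 probes called without that library, with probes also called with all 3 het arrays as red diamonds. The fits chose the y values of all points. Red points passed the threshold with pair 1 added and grey points missed it, so no point was free along the x axis. That choice favours grey points near 0 on it, as for Krt8, Krt18 and Acta1, or on the other side, as for Rhox6.

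The plot of pair 1 against the other pairs places the 33 shared probes away from 0 on both axes, as their selection in both fits fixed. Among the 107 gained probes, those of Krt8, Krt18 and Acta1 lay near 0 on the axis of the library labelled het 1, and those of Rhox6, Rhox9 and Msc lay on its opposite side. All 107 missed the threshold when pair 1 was included, which favours such positions, so they are a description.

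Gene lists were read by counts and medians, beside those of all tested genes. Of 8694 genes 46.0% had a positive fitted difference, 19 rose and 5 fell by their brightest probe (0.219% and 0.0575%), and the median was −0.02. Without the library labelled het 1 these were 44.9%, 69 and 31 (0.794% and 0.357%), and −0.02. Of the 8694 genes 142 were detected on no wt array and 43 on no het array. Genes detected on no wt array passed the filter only through het or hom arrays, which favours a positive difference. They numbered 3 among imprinted and 2 among X inactivation and Y-linked genes. Primed epiblast, primitive endoderm, carbonic anhydrase, PRC1, blood-lineage and germline lists held 1 each. IGF-binding proteins and other genes of the IGF axis leaned higher, 11 of 12 being positive (median 0.44). With all het arrays 1 of them rose, Igfbp3. Without that library 4 rose and the median was 0.57: Igfbp3, the growth factor gene Igf2 at 1.08 ± 0.150 (limma adjusted p = 0.00599), Igfbp4 at 0.95 ± 0.171 (adjusted p = 0.0229) and Irs2, an adaptor of the insulin and IGF receptors, at 1.02 (adjusted p = 0.0290). Igf2 levels were 9.16, 11.38 and 9.55 in wt and 9.73, 12.34 and 10.55 in het, highest in replicate 2 of both, where fibroblast markers were also highest. Their part in the result was not tested. The receptor gene Igf1r had 0.59 without that library (adjusted p = 0.17).

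Carbonic anhydrase genes were mixed: 4 of 7 were positive and 2 rose, Car4 and Car2, while Car14 had 0.32, Car5b 0.30, Car13 −0.16, Car11 −0.27 and Car12 −0.27, none of them past the threshold. Car2 levels were 4.83, 5.03 and 5.90 in wt and 5.46, 5.83 and 6.83 in het. The list median was 0.30, and 0.11 without the library labelled het 1. Of 11 genes of iron handling 1 rose, Slc40a1, and the transferrin receptor gene Tfrc had −0.12 and the ferritin heavy chain gene Fth1 0.01 (median −0.12, and −0.11 without that library). Of 20 p53 targets 17 were positive with a median of 0.28, and 1 rose, Ccng1, at 9.19, 9.34 and 9.53 in wt and 9.71, 10.18 and 10.17 in het, with no overlap. The kinase inhibitor gene Cdkn1a had 0.54 (limma adjusted p = 0.15) and Phlda3 0.58 (adjusted p = 0.077). The median of the p53 list was 0.24, 0.22 and 0.25 in the 3 pairs, a narrow range, and without that library the fitted median was 0.27, with 15 of 20 positive.

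Naive pluripotency genes leaned lower, 20 of 27 being negative (median −0.16), and 0 were called with all het arrays. Pou5f1 had 0.20, Sox2 0.04 and Nanog −0.13, none past the threshold. The median was −0.21 without the library labelled het 1, and 2 fell, the F-box gene Fbxo15 at −0.75 ± 0.121 (limma adjusted p = 0.0129) and Tcl1, a coactivator of AKT kinases, at −0.77 (adjusted p = 0.0311). Fbxo15 was at 10.73, 11.02 and 10.69 in wt, 10.77 in that library, and 10.19 and 9.91 in het 2 and het 3. Klf2, Tbx3 and Nr5a2 had −0.45, −0.45 and −0.51 with all het arrays, none past the threshold. Per pair the list median was 0.07, −0.20 and −0.26.

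Among lists of other cell fates, epithelial and mesenchymal switch genes were positive in 13 of 15 cases (median 0.14), and Krt8 and Krt18 rose without the library labelled het 1. These 2 keratins are also 2 of 4 tested trophoblast genes (median 0.75, 3 positive), while Krt7 had 0.29 and Tfap2c −0.20, and Cdx2, Elf5 and Hand1 were not detected. Of 18 fibroblast and feeder genes 17 were positive (median 0.36) and 0 were called, and the median was 0.80 in pair 2 against 0.12 and 0.10 in pairs 1 and 3. Primitive endoderm genes (8 of 13 positive, median 0.21) and genes of primed epiblast and primitive streak (7 of 9, median 0.17) had 0 calls with all het arrays. Foxq1, an endoderm gene of the list, passed the filter only outside wt, so no call is read from it without that library. Of 16 listed neural precursor genes only 4 were tested, Nes, Gbx2, Nnat and Ncam1. All 4 were positive (median 0.43), and Nnat rose. Gbx2 is also on the naive pluripotency list, Ncam1 had 0.08, and Sox1, Pax6 and Tubb3 were among those not tested. Without that library the medians were 0.26 for switch genes, 1.08 for trophoblast, 0.43 for fibroblast, 0.29 for primitive endoderm, 0.16 for primed epiblast and streak and 0.54 for neural precursor genes.

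Of 25 imprinted genes 19 were positive, with a median of 0.18, and Nnat rose. The 25 include 3 detected on no wt array, for which the filter favours a positive sign. Without the library labelled het 1 Nnat and Igf2 rose and Zdbf2 fell by 0.69 ± 0.134 (limma adjusted p = 0.0336). Of 8 germline genes 5 were negative (median −0.13), and Rhox6 and Rhox9 fell in the fit without that library. Medians in that fit were 0.20 for imprinted and −0.13 for germline genes. The per-pair median of the germline list was 0.49, −0.14 and −0.15. Among WNT targets (3 of 6 positive, median 0.09) the transcription factor gene Sp5 rose without that library, by 1.17 ± 0.226 (adjusted p = 0.0331), and among immediate early genes (7 of 10, median 0.13) Ccn1, a matricellular protein gene, rose by 0.95 ± 0.157 (adjusted p = 0.0138), with list medians of 0.20 and 0.26 in that fit. Of 3 tested X inactivation and Y-linked genes (median 0.17) 2 were detected on no wt array. Eif2s3y was tested only through its high arrays, as described above, so no call is read from it.

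Genes that act on the histone mark of MYSM1 or on related marks had 0 calls in either fit. The list of H2A deubiquitinases other than Mysm1 was negative in 6 of 9 cases (median −0.07), with Usp16 at 0.01 and Bap1 at −0.22. It also holds Asxl1 (−0.29), a cofactor of BAP1 and not an enzyme of this kind. PRC1 genes were negative in 9 of 15 (median −0.06), PRC2 genes in 6 of 9 (−0.10) and DNA methylation genes in 6 of 9 (−0.09). Blood-lineage genes tied to Mysm1 were positive in 4 of 4 tested cases (median 0.16), Gata2 at 0.14 among them. Of these 4, 1 was detected on no wt array, and the filter favours a positive sign for it. Of 25 S phase genes 22 were negative. Their median was −0.12, and −0.18 without the library labelled het 1. In the same order, the medians of the lists before it were −0.11, −0.06, −0.18, −0.11 and 0.04 without that library, with 2 of 4 blood-lineage genes then positive.

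The remaining lists also had 0 calls in both fits, read by the brightest probe of each gene. A dimmer probe of Etv5, a gene of the first list, was called without the library labelled het 1 (0.72, limma adjusted p = 0.0250). Its brighter probe gave 0.40 in that fit. Medians were 0.13 for Nodal, BMP and FGF outputs (19 genes), 0.03 for lysosome and autophagy (14), 0.00 for heat shock and chaperones (12) and 0.00 for interferon response (8). They were −0.02 for cytosolic ribosomal proteins (44), −0.04 for glycolysis and hypoxia (20), −0.07 for the integrated stress response (15), −0.08 for cholesterol synthesis (16) and −0.11 for the 1 tested gene of the 2-cell-like state. Without the library labelled het 1 these 9 values were between −0.20 and 0.11.

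**Figure D5:**
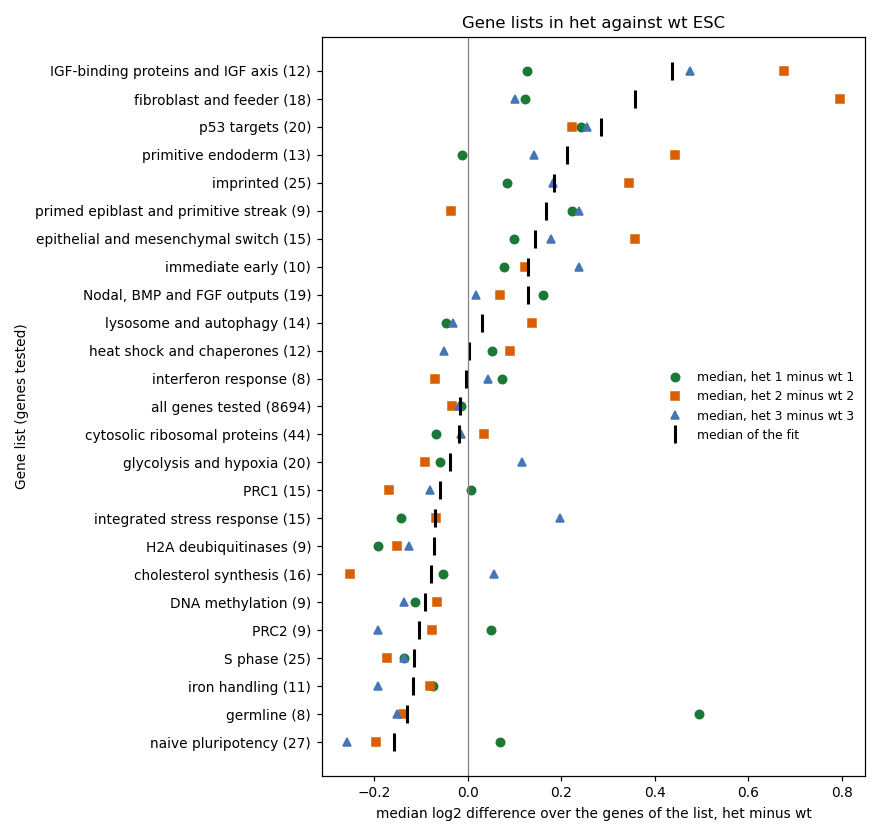
Median log2 difference between het and wt over the tested genes of a list (x axis), for lists with at least 8 tested genes and for all genes (y axis, number tested in brackets), in each same-numbered pair (coloured points) and in the fit (black bar). Pair 2 was highest for fibroblast (0.80) and IGF (0.68) genes, pair 1 stood apart for germline genes (0.49), and the 3 pairs of p53 targets lay close together.

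The plot of list medians places the 3 pairs on the same side of 0 for S phase genes, p53 targets, IGF genes and imprinted genes, among others. They lay on both sides of 0 for naive pluripotency and germline genes.

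By chromosome, genes of chromosome 8 were lower in het. Over 276 genes with a mean of at least 7, the median relative to the mean of all arrays was 0.24, 0.12 and 0.08 in wt 1 to wt 3 and −0.01, −0.12 and −0.10 in het 1 to het 3, without overlap, and −0.11 to −0.05 in hom. The median fitted difference was −0.20 (−0.21 without the library labelled het 1), where the other autosomes had −0.04 to 0.02. Of the 40 probes with a position that were called lower without that library, 7 were on chromosome 8 (5.57% of tested probes with a position) and 7 on chromosome 11 (8.82%), and of the 86 called higher 3 were on chromosome 8. Acta1 is on chromosome 8 and rose. X-linked genes had a median of 0.11 with all het arrays and −0.02 without that library. Whether copies of chromosome 8 differed between the cultures was not tested, and chromosome 8 was singled out after its values were seen.

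Hom arrays share the wt controls, so their differences from wt are set beside those of het only as values. Hom against wt called 599 probes (4.13%), 271 higher (1.87%) and 328 lower (2.26%). Hom minus wt was 0.77 for Igfbp3, 1.16 for Car4, 1.01 for Slc40a1, −1.76 for Erdr1 and −2.04 for Pisd-ps3, where het minus wt was 1.11, 1.16, 1.11, −1.64 and −1.89. For Acta1, Krt18 and Krt8 it was 0.67, 0.80 and 0.59, none past the threshold. The label of hom 1 is also in doubt, since its Mysm1 level was near het 2 and het 3. Its Xlr4a level, 4.97, was also near theirs, but on the third principal component it lay at −13.2, between hom 3 at −15.7 and hom 2 at −10.7. Whether the labels of het 1 and hom 1 were exchanged was not tested. Without both, hom minus wt was 0.87 for Igfbp3, 1.23 for Car4, 1.01 for Slc40a1, −1.84 for Erdr1 and −1.52 for Pisd-ps3, each past the threshold. In that fit Krt18 had 0.88 (limma adjusted p = 0.0182), Krt8 0.68 (adjusted p = 0.0362) and Acta1 0.77 (adjusted p = 0.0523).

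The direct test of hom against het called 0 of 14502 probes in limma (0%), and 1573 (10.8%) had an unadjusted p under 0.05. The genes of smallest p were Ctnna1 (−0.42), Eef1akmt1 (0.51), Grina (−0.61), Mgp (−0.55) and Mup6 (0.65, all hom minus het, adjusted p = 0.438). Without the library labelled het 1, 8 probes were called. Hom was higher for Ccne2 (1.11), Msc (1.09), Rhox6 (1.61) and Rhox9 (1.51), and lower for Nrep (−0.90), Igf2 (−0.98), Scarf2 (−0.999) and Spsb1 (−0.95). Without the libraries labelled het 1 and hom 1, 293 were called.

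Whether the het difference was the same in MEF was tested on 20 arrays normalized together. The difference between the cell types passed for 0 of 17067 probes in limma (0%), and 460 (2.7%) had an unadjusted p under 0.05. That fit had 14 residual degrees of freedom and no replicate block. Igfbp3 had 0.48 in MEF, Car4 −0.03, Slc40a1 0.06 and Erdr1 −1.48, none past the threshold there, and the difference between ESC and MEF was 0.66, 1.21, 1.03 and −0.11. The smallest p values belonged to Pigt (−1.44), Sec63 (0.99), Hps5 (−0.85), Plac8 (1.54) and Man1a2 (1.48), with adjusted p from 0.330 to 1.00. In het against wt MEF 1 probe was called (0.00586%), that of Pigt.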

How the data were processed

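Total RNA was measured on Illumina bead arrays of 45281 probes. Each probe and array has, per the file headers, a mean bead intensity, a detection p-value and a bead count in the deposited table of raw values. The deposited series matrix holds intensity values the authors normalized, used as an alternative. BeadStudio and limma appear, unversioned, in the submitters' processing notes. The 9 ESC arrays were background corrected with neqc (offset 16, control beads inferred from detection p-values, 936 implied) and quantile normalized in R 4.3.3 with limma 3.58.1. Probes with detection p under 0.01 on at least 3 arrays were tested. Genotype and replicate number (which the data pair, since every same-numbered pair correlated above 0.1) were fitted with lmFit and eBayes with a trend, leaving 4 residual degrees of freedom, or 3 without het 1. P-values were Benjamini-Hochberg adjusted over all tested probes, threshold 0.05. The method was tested on simulated data.

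Groups follow titles and genotype labels, and slides follow the array descriptions. Gene names came from the platform annotation, updated by RefSeq: 34885 probes had 1 gene, 18 several and 10378 none. Genes named were the markers, the 12 largest rises and falls with all het arrays and the 10 largest without het 1 that moved alike in each pair, the 5 of smallest p in the other comparisons and up to 4 members of each of 31 lists (625 genes, 392 tested). Members, lists and rules were chosen with earlier results of these data known. Where a whole group was undetected, the fold is a lower bound: the brighter group's mean over the dim group's, each dim array taken at its own value or at the lowest detected signal, whichever was higher. For chromosome medians, genes with mean log2 of 7 or more were used. Alternatives covered background, normalization, filters, slide, block, weights, trend, threshold and each library left out. Figures used matplotlib 3.10.9.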

Additional observations from a re-analysis of the deposited data

How the results depend on the processing

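Few arrays and the pairing by number limit these results. The 37 calls became 0 with no replicate block (genotype alone), 12 with normexp background, 19 with median scaling, 14 with the series matrix values, 68 with no filter on dim probes, 22 with the wt and het arrays alone, 6 and 3 with slide as a fixed or random block, 3 within slide 2, 530 with array weights, 4 with no trend in eBayes and 7 at adjusted p under 0.01. With both the library labelled het 1 and that labelled hom 1 left out they became 261, and 266 without all 3 numbered 1. Leaving out each library gave 3 to 140. Cyclic loess gave 37, normalization of 20 arrays together 39 and probes detected on all arrays 26, a filter that drops Mysm1. The cause was not tested where a count moved, except that alternatives with fewer arrays have fewer degrees of freedom.

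The Mysm1 difference stayed negative in every alternative that gave a value. It passed the limma threshold with slide as a fixed block (−3.64, adjusted p = 0.00120), which links wt to het through the library labelled het 1. It also passed without the libraries labelled het 1 and hom 1 (−0.88, 0.0266) or all 3 numbered 1 (−0.88, 0.0289). Within slide 2, where the library labelled het 1 was the only het array, it was −3.15. Mysm1 levels were among the reasons to doubt those labels, so these p-values are no test of the allele. Leaving out each library gave −2.21 to −0.68. Exchange within same-numbered pairs, chosen after the data were seen, left −1.67 with an exact p of 0.25. With no replicate block it was −1.67, and the block moved its adjusted p but not its side of the threshold. Hom against het stayed at 0 calls except without het 1 (0 to 8 over single libraries left out) and without the libraries labelled het 1 and hom 1 (293). The difference between ESC and MEF stayed at 0 calls in its alternatives, a replicate block within each cell type among them.

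Of 541 alternative values of the 21 named genes that were called, 287 kept direction and call, 249 kept direction but missed the threshold and 5 turned sign, all within slide 2: Anxa3 (−0.62), Anxa5 (−0.13), Gbp2 (−0.0858), Prnp (−0.0859) and Scarf2 (−0.27). Igfbp3 and Car4 missed the threshold without wt 2, wt 3, het 2 or het 3. Dim probes near background, Mysm1, Foxq1 and Eif2s3y among them, have compressed differences. Of the called genes, Igfbp3, Car4, Car2, Nnat and Pea15a had no value in the fit limited to probes detected on all 9 ESC arrays. Each was thus undetected on some ESC array, and its difference can also be compressed.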
